A study of Mus musculus with 3 samples.

Results

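The genes of VEGF, angiopoietin and apelin signaling were described in single-cell RNA-seq of the mouse ovary. The 10 members, *Vegfa*, *Vegfc*, *Flt1*, *Kdr*, *Nrp1*, *Angpt1*, *Angpt2*, *Tek*, *Apln* and *Aplnr*, were chosen by name, with earlier results of these data known. All 10 were among the 24958 genes of the deposited table. Shares over all genes, given below beside counts of members and other listed genes, thus describe these lists and support nothing. Per the labels there were 3 ovary libraries (10x Genomics), 1 each at 0, 1 and 6 h of treatment with hCG (human chorionic gonadotropin), which stands in for the surge of luteinizing hormone and so sets off ovulation. Kunming mice aged 21 days, primed 48 h earlier with PMSG to make follicles grow, are described in the study's methods. Neither source says if PMSG was also given before hCG, how many animals were pooled, or which library each cell barcode belongs to. The barcodes end in 1, 2 or 3, and the cells of each ending are called barcode sets 1, 2 and 3 here, without a time point. With 1 library per group no test between sets was possible, so each interval below covers counting error only.

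VEGF-A is the main secreted signal that makes vessels grow. It acts on endothelial cells through the kinase receptor KDR (VEGFR2), with neuropilin 1 as co-receptor, while FLT1 (VEGFR1) binds the same ligand tightly and can hold it back. Angiopoietin 1 activates TEK (TIE2) and steadies vessels, angiopoietin 2 binds the same receptor and often opposes it, and apelin signals through the G protein-coupled receptor APLNR on growing vessels. In the ovary these systems are known for the capillaries that invade the follicle wall after the ovulatory surge and supply the corpus luteum.

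On the mm10 assembly (GENCODE annotation), *Kdr* (chr5:75932827-75978458) and *Flt1* (chr5:147561604-147726011) lie on the minus strand of chromosome 5, *Tek* (chr4:94739289-94874976) on the plus strand of chromosome 4 and *Aplnr* (chr2:85136225-85139923) on the plus strand of chromosome 2. *Nrp1* (chr8:128358604-128503363) and *Vegfc* (chr8:54077606-54187096) are on the plus strand of chromosome 8 and *Angpt2* (chr8:18690263-18741562) is on its minus strand. *Vegfa* (chr17:46016993-46032369), *Angpt1* (chr15:42424723-42676977) and *Apln* (chrX:48025146-48034853) are on minus strands. Counts were per gene, so isoforms such as soluble FLT1 were not separated.

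The 250 bases before the start site are shown for 3 receptors that were found mainly in endothelial-like cells and for 2 ligands. Of these ligands, *Vegfa* was found mainly outside endothelial-like cells. *Apln* had its highest level averaged over the sets in endothelial-like cells, though not its highest level in set 1. The sequences are from RefSeq on GRCm38.p6, which held 7 of the 10 members. Capitals mark GGAAG, the core bound by ETS factors, and GGGCGG, the GC box, on either strand (as CTTCC and CCGCCC on the other strand).
*Kdr*, chr5:75978456-75978705, minus strand: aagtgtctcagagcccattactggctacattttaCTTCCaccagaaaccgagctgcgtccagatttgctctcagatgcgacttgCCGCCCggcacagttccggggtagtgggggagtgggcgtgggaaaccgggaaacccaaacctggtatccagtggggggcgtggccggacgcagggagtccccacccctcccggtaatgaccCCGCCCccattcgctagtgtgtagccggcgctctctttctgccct
*Flt1*, chr5:147726012-147726261, minus strand: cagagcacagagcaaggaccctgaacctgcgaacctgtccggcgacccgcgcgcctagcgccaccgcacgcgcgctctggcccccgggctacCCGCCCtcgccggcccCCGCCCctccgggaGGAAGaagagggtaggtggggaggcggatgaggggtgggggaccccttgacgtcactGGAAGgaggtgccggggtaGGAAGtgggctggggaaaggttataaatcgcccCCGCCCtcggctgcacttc
*Tek*, chr4:94739039-94739288, plus strand: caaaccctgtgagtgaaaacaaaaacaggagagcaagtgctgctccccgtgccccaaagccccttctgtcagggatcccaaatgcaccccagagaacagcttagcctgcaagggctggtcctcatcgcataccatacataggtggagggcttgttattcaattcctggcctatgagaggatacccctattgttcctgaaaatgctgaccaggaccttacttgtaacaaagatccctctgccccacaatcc
*Apln*, chrX:48034854-48035103, minus strand: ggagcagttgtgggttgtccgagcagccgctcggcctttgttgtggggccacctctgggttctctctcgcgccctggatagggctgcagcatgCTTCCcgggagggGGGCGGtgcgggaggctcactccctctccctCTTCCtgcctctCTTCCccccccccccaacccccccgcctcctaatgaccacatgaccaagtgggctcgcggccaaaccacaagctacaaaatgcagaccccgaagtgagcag
*Vegfa*, chr17:46032378-46032627, minus strand: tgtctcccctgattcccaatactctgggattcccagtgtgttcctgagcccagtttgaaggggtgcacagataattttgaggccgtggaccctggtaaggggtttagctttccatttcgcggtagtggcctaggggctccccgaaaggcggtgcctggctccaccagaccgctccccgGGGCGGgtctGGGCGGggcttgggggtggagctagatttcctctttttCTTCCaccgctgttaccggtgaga
GGAAG occurred 1 time before *Kdr*, 3 times before *Flt1*, 3 times before *Apln*, 1 time before *Vegfa* and 0 times before *Tek*. GGGCGG occurred 2, 3, 1, 2 and 0 times, respectively. For *Vegfa* the table held a second start site (upstream bases chr17:46025164-46025413, with 1 GGAAG and 1 GGGCGG), and the one shown lies next to the start of the annotated gene. Over all 32851 promoter sequences of this length, 64.1% held GGAAG and 32.7% held GGGCGG.

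The table held 31776 cells, 10384 in set 1, 9917 in set 2 and 11475 in set 3, with medians of 6093, 6352 and 6524 UMIs (unique molecular identifiers) per cell. Cells were classed by marker genes that include no member of the pathway. A total of 28536 cells received 1 of 14 classes and 3240 (10.2%) received none. The endothelial-like class, gated on *Pecam1*, *Cdh5*, *Cldn5*, *Egfl7* and *Emcn*, held 432, 716 and 456 cells in sets 1, 2 and 3. All 9 endothelial genes kept out of the gate, such as *Esam* and *Robo4*, were at least 2-fold higher in it than in the other classed cells in each set. Of 6 granulosa genes kept out of the gate, 3, 3 and 4 were so in the granulosa-like class. The luteal-like class needs care. Its name rests on 4 markers, of which 2, 1 and 4 were among its leading genes in sets 1, 2 and 3. That its cells come from a corpus luteum was not tested. Its 176 and 150 cells in sets 1 and 2 had theca markers at a summed level of 62.2 and 62.3 UMIs per 10000 and granulosa markers at 17.0 and 35.4, whereas its 1135 cells in set 3 had theca markers at 21.5 and granulosa markers at 60.2. A level is the summed UMIs of a gene per 10000 summed UMIs of the class, with its exact Poisson 95% interval, and levels were compared for the same gene only, since counts were not scaled to gene length. A lower level in a class does not separate fewer expressing cells from less RNA per cell, so shares of cells with a UMI are given too, at an equal depth of 3000 UMIs reached by random thinning.

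The endothelial-like class had the highest level of 7 members (*Kdr*, *Flt1*, *Tek*, *Aplnr*, *Nrp1*, *Vegfc* and *Apln*), averaged over the sets, against 5.47% of the 13738 genes with at least 200 UMIs. *Vegfa* was highest in luteal-like, *Angpt1* in smooth muscle-like and *Angpt2* in lymphatic endothelial-like cells. The level in the leading class was 2-fold or more that of all other classed cells in each set for 9 of 10 members, with *Angpt1* as the exception, against 30.8% of genes. The lead of *Vegfa* in luteal-like cells depended on the classes. In its lowest set it became 0.962 when granulosa, luteal and atretic classes were joined, and 1.82 as a mean over cells, 1.9 with cluster classes and 1.98 without the cells of highest UMIs. *Kdr*, *Flt1*, *Tek* and *Aplnr* were 20-fold or more higher in the endothelial-like class in each set, as were 1.02% of genes.

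**Figure D1:**
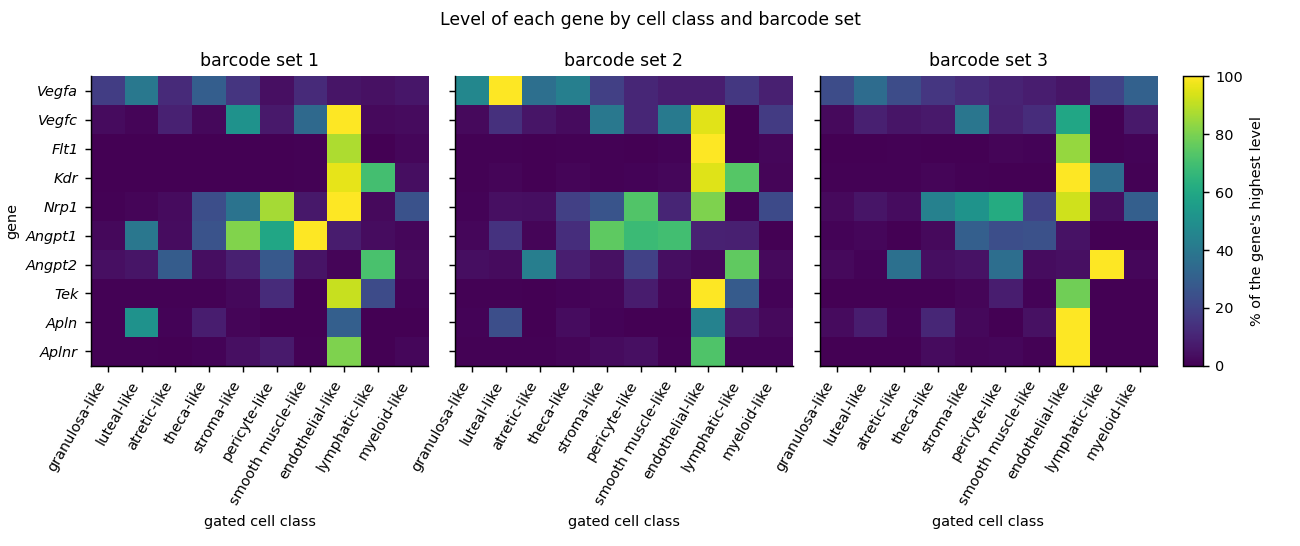
Level of the 10 members (rows) in 10 cell classes (columns) of barcode sets 1, 2 and 3 (panels), as a percentage of the highest level of that gene over the classes and sets shown. *Kdr*, *Flt1*, *Tek* and *Aplnr* are bright in the endothelial-like column of each set and dark in nearly all others, apart from *Kdr* in the lymphatic column, and *Vegfa*, *Angpt1* and *Angpt2* are dark there.

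*Kdr*, the receptor that carries most of the VEGF-A signal in endothelium, was held at nearly the same level in the endothelial-like cells of all sets. Sets 1, 2 and 3 had 1938, 2680 and 1706 UMIs, or 5.93 (5.67 to 6.20), 5.88 (5.66 to 6.10) and 6.16 (5.88 to 6.46) UMIs per 10000. The highest set was 1.05 times the lowest, with an interval of 0.987 to 1.11 that includes no difference. Endothelial-like cells had 111, 86.9 and 174 times the level of all other classed cells and held 83.8% of all *Kdr* UMIs. After thinning, 74.9%, 74.8% and 75.4% of them had a *Kdr* UMI (85.9%, 83.2% and 81.8% before). In granulosa-like cells, taken here as a class without the receptor, the thinned share was 0.345%, 0.841% and 0.562%. That they lack it was not tested. Their median depths were 6106, 6986 and 7620 UMIs against 5086, 5131 and 4801 in endothelial-like cells.

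*Flt1*, the decoy-like VEGF receptor, was the member most restricted to these cells. Its level was 5.42 (5.17 to 5.68), 6.19 (5.96 to 6.42) and 5.21 (4.94 to 5.48), and set 2 was 1.19 times set 3. The endothelial-like level was 471, 193 and 308 times that of the other classed cells, and the class held 92.7% of the *Flt1* UMIs in the table. A *Flt1* UMI was found in 77.2%, 77.8% and 75.1% of thinned endothelial-like cells and in 0.408%, 0.571% and 0.241% of granulosa-like cells. *Kdr* was detected in 74.9%, 77.0% and 77.7% of the cells with *Flt1* and in 75.0%, 66.9% and 68.2% of those without it, with overlapping exact intervals in each set.

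*Tek*, the receptor of the angiopoietins, was highest in the same class. Its level in endothelial-like cells was 1.59 (1.45 to 1.73), 1.74 (1.62 to 1.86) and 1.36 (1.23 to 1.5), or 79.3, 90.2 and 100.1 times the other classed cells, and the highest set was 1.28 times the lowest. These cells held 80.6% of its UMIs. Lymphatic endothelial-like cells, described below, came next in sets 1 and 2, at 0.399 (0.256 to 0.594) and 0.501 (0.259 to 0.875). Pericyte-like cells, the mural cells that wrap capillaries, had 0.217, 0.135 and 0.139. These pericyte-like levels rest on 14, 9 and 9 UMIs. They were 6.00, 5.02 and 5.82 times those of stroma-like cells, and endothelial gate markers (*Pecam1* and others) were not absent from these cells, at a summed level of 0.526, 0.823 and 1.12 UMIs per 10000. The part of these endothelial markers in the *Tek* value was not tested.

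*Aplnr*, the apelin receptor, had a wider range between sets than *Kdr*, *Flt1* and *Tek*, though these ranges were not tested against each other. Its endothelial-like level was 3.31 (3.12 to 3.51), 2.96 (2.80 to 3.12) and 4.09 (3.86 to 4.34), and set 3 was 1.38 times (1.28 to 1.5) set 2. Thinned shares followed the same order of set 3 above the others, at 45.3%, 49.4% and 54.0%, with intervals of set 3 that overlapped those of both other sets. Outside the endothelium, 14.7% of its UMIs were in stroma-like cells, at 0.176, 0.119 and 0.0581, so that set 3 was 0.33 times (0.273 to 0.40) set 1. Theca-like cells ran the other way, at 0.0465, 0.0496 and 0.127, with set 3 at 2.72 times (2.0 to 3.71) set 1. The summed level of the endothelial gate markers was 0.281, 0.435 and 0.274 in theca-like cells and 0.755, 0.687 and 0.639 in stroma-like cells. In theca-like cells these markers thus did not have the order of *Aplnr*, in stroma-like cells they did, and their part there was not tested.

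Low counts of the members in granulosa-like cells were set beside those of other endothelial genes. For *Kdr*, *Flt1*, *Tek*, *Aplnr*, *Nrp1* and *Apln*, the granulosa-like level was a median of 0.520%, 0.614% and 0.358% of the endothelial-like level, against 0.472%, 0.665% and 0.756% for the 9 endothelial genes kept out of the gate. *Nrp1* (2.68% in set 3) and *Apln* (2.29% to 2.80%) were well above the median of these 9 genes, whose own values reached 2.73%, 2.01% and 4.03% (*Sox18*). Endothelial-like cells held only 10.4% of the *Nrp1* UMIs of set 3, and 18.3%, 58.5% and 45.1% of the *Apln* UMIs of sets 1, 2 and 3. For both genes this comparison thus leaves out free RNA of other classes, whose part was not tested. In theca-like cells *Kdr* was 0.0109, 0.0960 and 0.0772, a ratio of set 2 to set 1 of 8.81 (5.20 to 15.6), while the endothelial gate markers there went from 0.281 to 0.435. The part of endothelial RNA in this ratio was not tested.

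Lymphatic endothelial-like cells, gated on *Prox1*, *Ccl21a*, *Mmrn1* and *Reln*, had *Kdr* but little or none of *Flt1*, *Aplnr* and *Nrp1*. They were rare, with 45, 29 and 11 cells, and 7 of the 11 in set 3 were near a gate threshold. Their median marker score for the endothelial class was 0.513 and 0.451 in sets 1 and 2, but at most 0.0441 in set 3. The class thus had another makeup in set 3, and its part in the set 3 values was not tested. *Kdr* stood at 4.32 (3.81 to 4.88), 4.55 (3.73 to 5.49) and 2.18 (1.19 to 3.65), or 0.729, 0.774 and 0.353 times the endothelial-like level, with each interval below 1. *Flt1* had 0 UMIs in all 3 sets, which allows at most 0.0113, 0.0249 and 0.110 times the endothelial-like level. *Aplnr* had 0, 1 and 0 UMIs, *Vegfc* 1, 0 and 0, and *Nrp1* 6, 1 and 1. *Tek* was between these, at 0.251 (0.160 to 0.378) and 0.288 (0.148 to 0.507) times in sets 1 and 2 and 0 UMIs in set 3.

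*Angpt2* showed the reverse. In lymphatic endothelial-like cells it was 3.11 (2.68 to 3.59), 3.3 (2.61 to 4.11) and 4.35 (2.89 to 6.29), from 187, 79 and 28 UMIs, against 0.0581, 0.101 and 0.177 in endothelial-like cells. The ratio was 53.5 (33.3 to 90.9), 32.7 (22.4 to 48.1) and 24.6 (14.9 to 39.9). Angiopoietin 2 is known to be needed for lymphatic vessels. Within the endothelial-like class it was 3.05 times (1.76 to 5.48) higher in set 3 than in set 1, from 49 and 19 UMIs. No lymphatic cluster was found in set 3, and the part of lymphatic or pericyte RNA in this ratio was not tested.

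**Figure D2:**
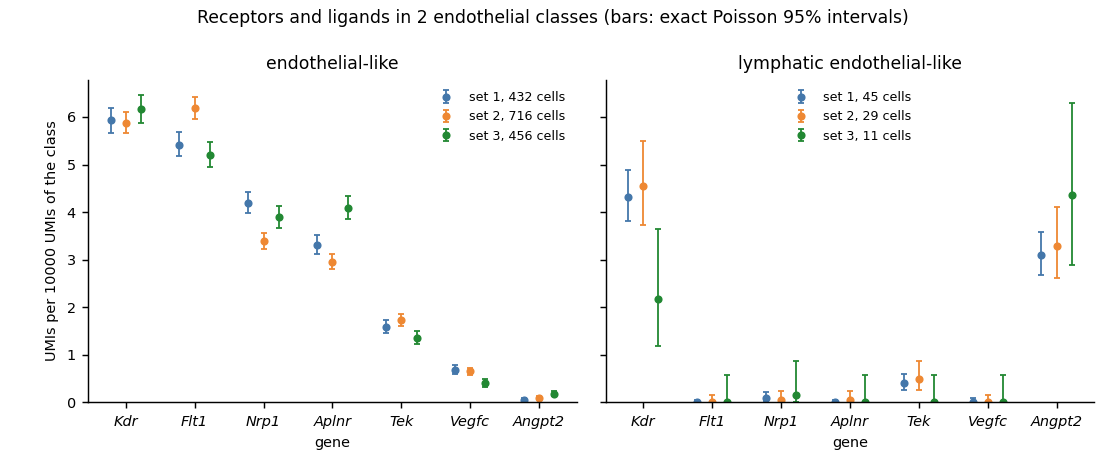
Level (UMIs per 10000 UMIs of the class) of 7 members in endothelial-like (left) and lymphatic endothelial-like cells (right), with points for barcode sets 1, 2 and 3 and bars for exact Poisson 95% intervals. *Flt1*, *Nrp1* and *Aplnr* drop to the axis or close to it in the lymphatic class, *Kdr* stays at 2.18 to 4.55, and *Angpt2* is high only on the right.

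*Nrp1*, which also binds class 3 semaphorins, was the receptor shared most widely between cell classes. It was highest in endothelial-like cells at 4.19 (3.97 to 4.42), 3.39 (3.22 to 3.56) and 3.89 (3.66 to 4.13). Pericyte-like cells followed at 3.62, 3.05 and 2.59, and the ratio of the 2 classes was 1.16 (1.01 to 1.34), 1.11 (0.958 to 1.29) and 1.5 (1.28 to 1.78), so they were not told apart in set 2. Pericyte-like cells were then 2.27, 2.81 and 1.20 times stroma-like cells. Because stroma-like cells are many, they held 51.1% of all *Nrp1* UMIs, against 18.2% in endothelial-like and 16.7% in theca-like cells.

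Set 3 had more *Nrp1* in most of the non-vascular classes. Stroma-like cells had 1.59, 1.09 and 2.16, theca-like cells 1.01, 0.801 and 1.85, and granulosa-like cells 0.0326, 0.0378 and 0.104. Set 3 was 1.99 times (1.89 to 2.09) set 2 in stroma-like cells, 2.31 times (2.08 to 2.56) in theca-like cells and 2.76 times (2.18 to 3.51) in granulosa-like cells. Pericyte-like cells did not share this order, with set 3 at 0.714 times (0.582 to 0.875) set 1, nor did endothelial-like cells. After thinning, a *Nrp1* UMI was found in 31.8%, 22.2% and 41.5% of stroma-like cells (44.2%, 36.9% and 64.7% before) and in 0.816%, 1.02% and 2.37% of granulosa-like cells.

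*Vegfa*, the ligand of *Kdr* and *Flt1*, came mainly from the steroid-producing and follicular cells, in which it was highest in set 2. Endothelial-like cells had little, at 0.0856, 0.125 and 0.0867 UMIs per 10000. Granulosa-like cells had 0.281 (0.261 to 0.302), 0.707 (0.676 to 0.739) and 0.358 (0.334 to 0.383) and held 39.0% of its UMIs, followed by stroma-like (17.2%), theca-like (15.6%) and luteal-like cells (11.2%). Theca-like cells had 0.456, 0.660 and 0.240. The order of these 2 classes changed. Granulosa-like over theca-like was 0.615 (0.556 to 0.681), 1.07 (0.965 to 1.19) and 1.49 (1.27 to 1.76). Theca markers summed to 37.4, 29.8 and 12.4 in granulosa-like cells, and granulosa markers to 17.5, 28.8 and 21.3 in theca-like cells. The part of this overlap in the changed order was not tested.

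Set 2 exceeded set 1 for *Vegfa* in each of the follicular classes. The ratio was 2.52 (2.31 to 2.75) in granulosa-like, 2.49 (2.09 to 2.97) in luteal-like, 3.10 (2.46 to 3.92) in atretic-like and 1.45 (1.28 to 1.63) in theca-like cells, and 1.23 (1.08 to 1.40) in stroma-like cells. Myeloid-like cells differed, with 0.0939 (0.0305 to 0.219), 0.133 (0.0608 to 0.252) and 0.473 (0.319 to 0.676), highest in set 3, from 5, 9 and 30 UMIs in 93, 132 and 142 cells. The makeup of this class also differed. Set 3 had a cluster of 97 cells led by *S100a9* and *S100a8*, 66% of them myeloid-like. Set 2 had such a cluster of 23 cells, and set 1 had no such cluster. The part of this makeup in the *Vegfa* values was not tested. Thinned shares of cells with a *Vegfa* UMI were 6.84%, 17.8% and 9.24% in granulosa-like cells (16.9%, 35.3% and 22.9% before). Genes that respond to tissue dissociation, such as *Fos* and *Egr1*, moved with it in granulosa-like cells, where the 9 listed genes summed to 44.2, 81.8 and 57.8. They did not in luteal-like cells, at 58.1, 56.0 and 67.8. The part of dissociation in the granulosa-like values was not tested.

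Luteal-like cells, gated on *Sfrp4*, *Ptgfr*, *Parm1* and *Akr1c18*, had the highest *Vegfa* level in each set, at 0.616 (0.536 to 0.706), 1.53 (1.37 to 1.71) and 0.544 (0.496 to 0.597). They were 1.35, 2.32 and 2.27 times theca-like cells. Because the class had another makeup in set 3, clusters were compared as well. In each set 1 cluster shared leading genes such as *Cemip* and *Ssu2*, with 392, 173 and 125 cells, a match made after the data had been seen. Of their cells 41.3%, 56.1% and 39.2% were in the luteal-like class, and their median depths were 13014, 15771 and 5376 UMIs. Of the 10 leading genes of the set 1 cluster, 6 also led in that of set 2 and 3 in that of set 3. *Vegfa* in these clusters was 0.571 (0.516 to 0.630), 1.42 (1.29 to 1.56) and 1.11 (0.906 to 1.35), so set 3 was 1.95 times (1.55 to 2.42) set 1 where the gated class gave 0.883 (0.748 to 1.04). Set 3 held another cluster that was most often luteal-like, with 1369 cells led by *Npy* and *Lyve1*, which shared 0 of those leading genes. *Vegfa* there was 0.438 (0.395 to 0.485), or 0.767 times (0.664 to 0.886) the set 1 cluster, so the direction depended on which cluster was taken.

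*Vegfc*, best known as the signal for lymphatic growth, was made by endothelial-like and stroma-like cells. The endothelial-like level was 0.685 (0.598 to 0.781), 0.653 (0.581 to 0.732) and 0.405 (0.333 to 0.487), and set 3 was 0.591 times (0.467 to 0.744) set 1. Cells with arterial markers, as defined below, made up 43.3%, 46.6% and 33.1% of this class, and those with tip markers 9.03%, 8.94% and 3.29%. The 9 dissociation-response genes summed to 55.2, 53.7 and 38.3 in it. The part of these values in the *Vegfc* difference was not tested. Stroma-like cells had 0.349, 0.274 and 0.270, so endothelial-like cells exceeded them 1.96, 2.38 and 1.5 times with each interval above 1. Of all *Vegfc* UMIs, 61.4% were in stroma-like and 20.2% in endothelial-like cells. Smooth muscle-like cells, at 0.235, 0.28 and 0.0883, could not be told from stroma-like cells in sets 1 and 2.

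*Angpt1*, the ligand that activates TEK, was a stromal and mural gene that was lowest in set 3. Smooth muscle-like cells had 0.965 (0.762 to 1.20), 0.672 (0.513 to 0.865) and 0.238 (0.157 to 0.347), stroma-like cells 0.781, 0.726 and 0.291, and pericyte-like cells 0.572, 0.658 and 0.232. Neighbours in this order did not differ beyond counting error in any set. The stroma-like class held 70.7% of its UMIs. Set 3 over set 1 was 0.373 (0.342 to 0.406) in stroma-like, 0.247 (0.153 to 0.387) in smooth muscle-like and 0.406 (0.207 to 0.757) in pericyte-like cells. The 8 stroma markers were also lowest in set 3 in the mural classes, at summed levels of 48.3, 49.5 and 26.8 in smooth muscle-like and 15.6, 10.0 and 8.58 in pericyte-like cells, and their part in these ratios was not tested.

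Theca-like cells, which make androgens, had *Angpt1* at 0.248 (0.225 to 0.272), 0.126 (0.0996 to 0.156) and 0.0253 (0.0152 to 0.0395), so set 3 was 0.102 times (0.0608 to 0.161) set 1. Stroma markers in theca-like cells had the same order, at 11.01, 8.59 and 5.14, and their part was not tested. The matched luteal-like clusters had 0.344, 0.164 and 0.151, a ratio of 0.439 (0.236 to 0.751), where the gated luteal-like class gave 0.0434. The other luteal-like cluster of set 3, of 1369 cells, had 0.01051, or 0.03055 times (0.0138 to 0.05899) the set 1 cluster. The highest *Angpt1* of any cluster in set 1 was 1.43, in 709 stroma-like cells led by *Mfap5* and *Clec3b*, in which *Vegfc* was 0.771 and *Nrp1* 2.94. A cluster of 247 cells led by the smooth muscle genes *Actg2* and *Cnn1*, 45.3% of them stroma-like, came next at 1.38, within counting error of it. Endothelial-like cells had little *Angpt1*, at 0.0734, 0.0899 and 0.0470.

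*Angpt2*, the second TEK ligand, was also high outside the lymphatic cells. Among the classes with at least 50 cells in each set, it was highest in pericyte-like cells and in granulosa cells with markers of atresia, the death of a follicle. Atretic-like cells had 1.26 (1.17 to 1.36), 1.87 (1.75 to 2.0) and 1.61 (1.42 to 1.83), which was 6.77 (6.03 to 7.62), 11.1 (9.89 to 12.4) and 13.6 (11.4 to 16.3) times the granulosa-like level. This class, gated on *Itih5*, *Ghr*, *Pik3ip1*, *Cald1* and *Igfbp5*, was defined after clusters with their *Angpt2* levels had been seen, so these ratios describe it and support nothing. It held 25.7% of the *Angpt2* UMIs in 886, 683 and 253 cells, and 26.7%, 31.8% and 27.6% of its thinned cells had a UMI against 5.52%, 5.11% and 3.21% of granulosa-like cells. Clusters led by *Rnase1* and *Pik3ip1*, found with all members left out of the clustering, had 2.18 in set 1 (435 cells), 2.42 in set 2 (714 cells) and 0.992 in set 3, where the cluster held 1132 cells, most often granulosa-like.

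Pericyte-like cells had *Angpt2* at 1.22 (0.968 to 1.52), 0.838 (0.633 to 1.09) and 1.56 (1.27 to 1.90), or 3.17, 4.36 and 7.59 times stroma-like cells. They equalled atretic-like cells within counting error in sets 1 and 3, and were lower in set 2. Stroma-like cells had 0.385, 0.192 and 0.206, and set 2 was 0.50 times (0.439 to 0.568) set 1. In theca-like cells set 2 was instead 2.22 times (1.86 to 2.65) set 1, at 0.359 and 0.162. Granulosa markers in theca-like cells were also highest in set 2, at 17.5, 28.8 and 21.3 in sets 1, 2 and 3, and their part was not tested.

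*Apln*, the apelin precursor, had the fewest UMIs of the members, 923 in the table, and its main source differed between sets. In endothelial-like cells it was 0.187 (0.143 to 0.240), 0.272 (0.226 to 0.324) and 0.614 (0.525 to 0.714), so set 3 was 3.29 times (2.44 to 4.49) set 1 and 2.26 times (1.78 to 2.87) set 2. This was 6.22, 21.6 and 24.6 times the level of all other classed cells, and the lowest of these became 18.9 as a mean over cells. Thinned shares were 6.84%, 5.25% and 14.7% (10.2%, 8.94% and 21.1% before), against 0.0628%, 0.180% and 0.603% in granulosa-like cells. Luteal-like cells had 0.313 (0.256 to 0.378), 0.146 (0.10 to 0.207) and 0.0499 (0.0360 to 0.0675). Endothelial-like over luteal-like was thus 0.597 (0.428 to 0.825), 1.86 (1.25 to 2.83) and 12.3 (8.73 to 17.7).

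The difference between sets in luteal-like cells depended on which cells were taken. In the matched clusters *Apln* was 0.293 (0.254 to 0.337), 0.144 (0.105 to 0.194) and 0.119 (0.0592 to 0.212), from 203, 44 and 11 UMIs, and set 3 over set 1 was 0.404 (0.199 to 0.739) in place of 0.160 (0.109 to 0.230) in the gated class. The other such cluster of set 3, of 1369 cells, had 0.0385, or 0.131 times (0.0880 to 0.190) set 1. Theca-like cells had 0.0494, 0.0201 and 0.0666, with set 3 at 3.31 times (1.77 to 6.63) set 2, and pericyte-like cells had 0 UMIs in each set, which allows levels up to 0.0571, 0.0552 and 0.0571. Other values moved with the endothelial-like *Apln* level. Erythroid markers summed to 0.122, 0.0789 and 1.17 UMIs per 10000 in this class, and cells with tip markers, as defined below, made up 9.03%, 8.94% and 3.29% of it, those with venous markers 32.2%, 27.5% and 18.2% and those with arterial markers 43.3%, 46.6% and 33.1%. The 9 dissociation-response genes summed to 55.2, 53.7 and 38.3 in the class. The part of these values in the *Apln* difference was not tested. An *Apln* UMI was seen in 6.29%, 6.38% and 18.5% of endothelial-like cells with *Aplnr* and in 7.29%, 4.15% and 10.2% of those without, with overlapping exact intervals.

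**Figure D3:**
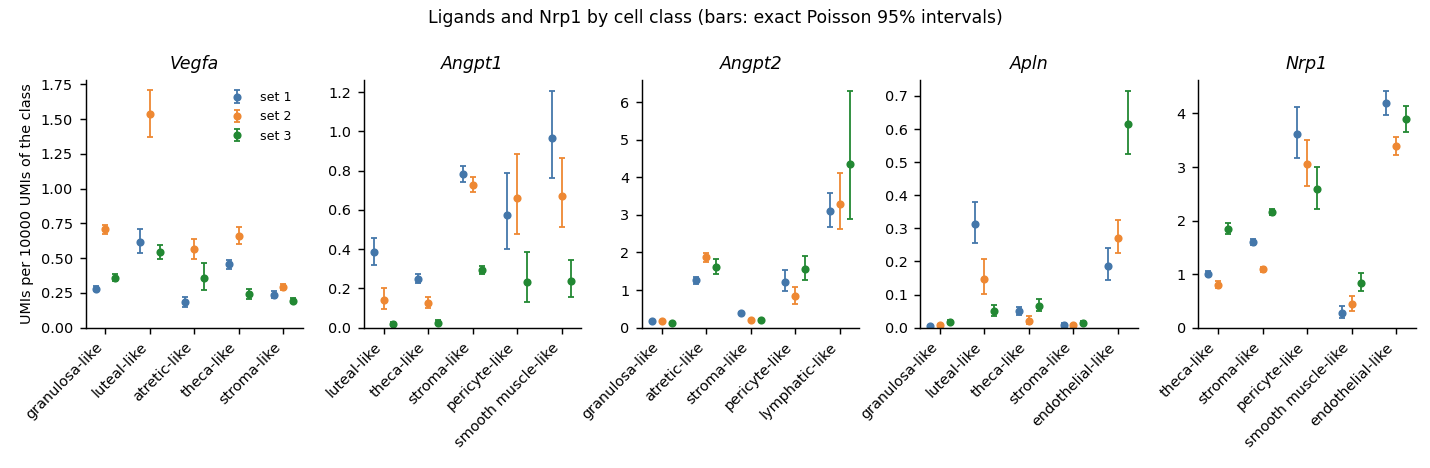
Level (UMIs per 10000 UMIs of the class) of *Vegfa*, *Angpt1*, *Angpt2*, *Apln* and *Nrp1* in selected classes, which include the class where each was highest on average, with points for barcode sets 1, 2 and 3, bars for exact Poisson 95% intervals and a separate axis for each gene. *Vegfa* is highest in set 2 in each class shown, *Angpt1* lowest in set 3, and *Apln* highest in set 3 in endothelial-like cells at 0.614.

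Endothelial-like cells were then split by markers of arterial (*Gja5*, *Gja4*, *Sox17*, *Bmx*, *Hey1*, *Efnb2*), venous (*Nr2f2*, *Vwf*, *Ephb4*, *Ackr1*, *Selp*) and tip cells (*Esm1*, *Dll4*, *Cxcr4*, *Pgf*), the cells that lead a sprout, with 2 detected genes needed. The subsets overlap and were deeper than the rest, with medians of 6276, 5725 and 5820 UMIs in arterial-marker cells against 4765, 4583 and 4235 in the others. The gap was wider for venous-marker cells, at 8032, 6888 and 7614 against 4291, 4483 and 4276. The part of depth in which cells were picked was not tested. Arterial-marker cells (187, 334 and 151) had more *Vegfc* than the others, 2.09 times (1.56 to 2.83), 2.76 times (2.09 to 3.67) and 2.62 times (1.74 to 3.99). They had less *Aplnr*, at 0.654, 0.506 and 0.508 times, with each interval below 1. *Tek* in them spanned 1 in each set.

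Venous-marker cells (139, 197 and 83) were lower in *Kdr*, *Nrp1* and *Apln* in each set. *Kdr* was 0.781 (0.713 to 0.856), 0.753 (0.695 to 0.817) and 0.744 (0.664 to 0.832) times the rest, and *Apln* 0.565, 0.381 and 0.521 times. In set 3 *Apln* was about as low in arterial-marker cells, at 0.523 (0.367 to 0.735) times, while its interval there included 1 in sets 1 and 2. Tip-marker cells (39, 64 and 15) were the opposite for *Kdr*, at 1.57 (1.39 to 1.77), 1.34 (1.21 to 1.49) and 1.27 (1.05 to 1.52) times the rest. Arterial-marker cells also had more *Kdr* in sets 1 and 3, at 1.20 (1.09 to 1.31) and 1.19 (1.08 to 1.31) times, while the interval of set 2 included 1. The tip markers *Esm1*, *Dll4* and *Pgf* are also among the other pathway genes listed below. The opposite direction of tip-marker cells did not hold for all genes. In tip-marker cells *Vegfc* was 3.19 and 1.79 times the rest in sets 1 and 2, and its interval included 1 in set 3 (0.818 to 3.16). *Aplnr* was lower in tip-marker cells, at 0.387, 0.575 and 0.394 times the rest. *Apln* in them turned between sets, at 1.95 (1.23 to 2.99) times the rest in set 2 and 0.185 (0.0222 to 0.678) in set 3, from 28 and 2 UMIs. Its interval in set 1 included 1, from 3 UMIs.

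**Figure D4:**
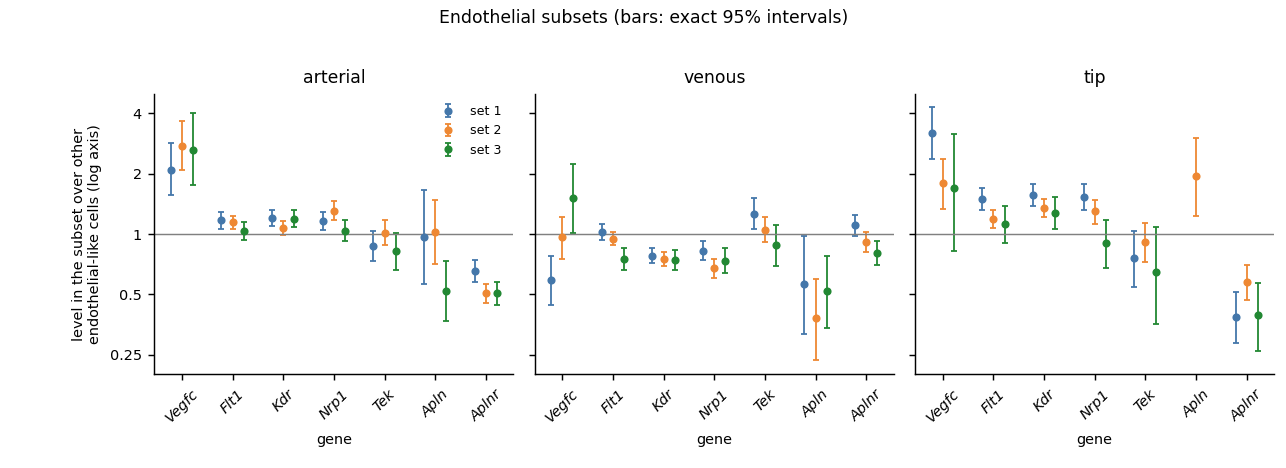
Level of 7 members in endothelial-like cells with arterial, venous or tip markers (panels), divided by the level in the other endothelial-like cells, on a log axis, with points for barcode sets 1, 2 and 3 and bars for exact 95% intervals. Points with fewer than 5 UMIs on either side are left out. *Vegfc* lies above 1 and *Aplnr* below 1 with arterial and with tip markers, and *Kdr* lies below 1 with venous markers and above 1 with tip markers. *Apln* with tip markers has a point for set 2 only.

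*Vegfa* also varied within granulosa-like cells, with an order that differed between sets. Antral mural-marker cells (*Lhcgr*, *Cyp19a1*, *Cyp11a1*, *Nppc*) had 1.26 (1.09 to 1.46), 1.20 (1.10 to 1.32) and 1.68 (1.16 to 2.37) times the level of the other granulosa-like cells, and they made up 40.1%, 38.4% and 1.85% of the class. Cells with markers of cumulus expansion (*Ptx3*, *Tnfaip6*, *Has2*, *Ptgs2*) were 0 in set 1, 1045 in set 2 and 355 in set 3. Their *Vegfa* was 1.26 (1.15 to 1.39) and 1.71 (1.46 to 1.99) times the rest. Preantral-marker cells (*Amh*, *Gatm*, *Kctd14*) were higher in set 1, at 1.39 (1.09 to 1.75), and lower in sets 2 and 3, at 0.570 (0.472 to 0.683) and 0.655 (0.534 to 0.797).

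Granulosa-like cells of set 2 without cumulus markers had *Vegfa* at 0.647, and all granulosa-like cells of set 1 had 0.281. The cumulus-marker cells of sets 2 and 3 were deeper than the others, with medians of 8222 and 11413 UMIs against 6629 and 7206. The part of depth in which cells were picked was not tested. *Angpt2* in granulosa-like cells was lower with mitotic markers, at 0.647 (0.518 to 0.804), 0.648 (0.504 to 0.825) and 0.770 (0.593 to 0.996) times the rest. Mitotic-marker cells were deeper, with medians of 10483, 12374 and 11850 UMIs against 5555, 6574 and 6560, and the part of depth was not tested. With cumulus markers *Angpt2* was lower in set 3, at 0.436 (0.279 to 0.654).

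**Figure D5:**
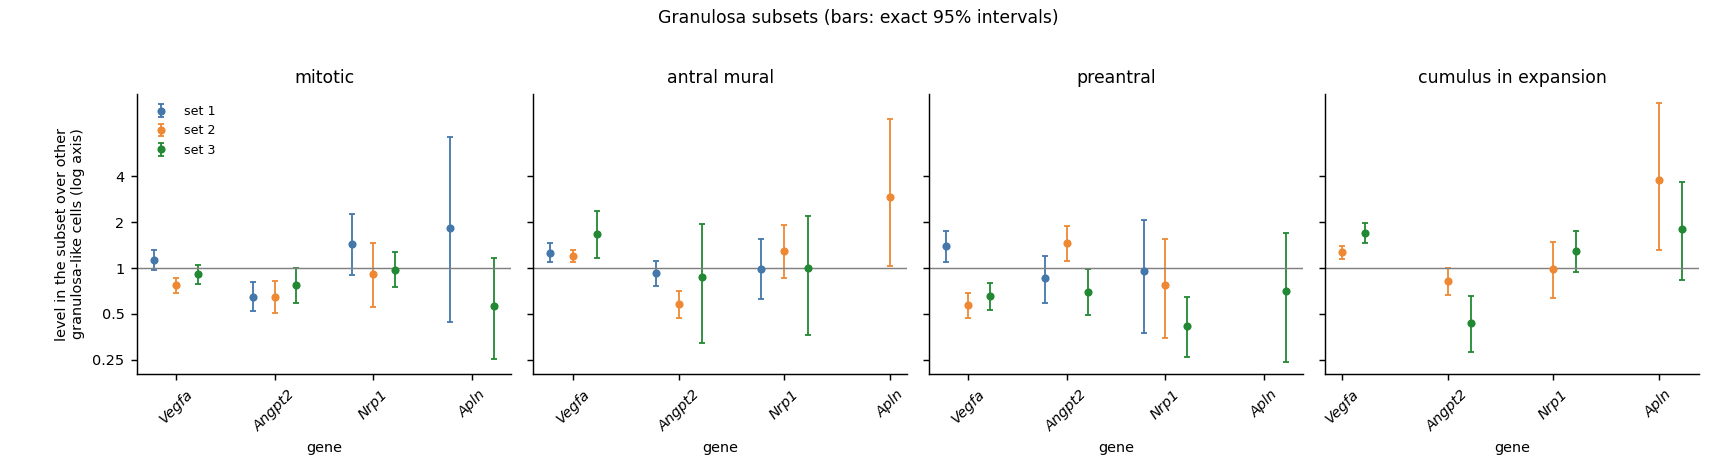
Level of *Vegfa*, *Angpt2*, *Nrp1* and *Apln* in granulosa-like cells with mitotic, antral mural, preantral or cumulus expansion markers (panels), divided by the level in the other granulosa-like cells, on a log axis, with points for barcode sets 1, 2 and 3 and bars for exact 95% intervals. Points with fewer than 5 UMIs on either side are left out. *Vegfa* lies above 1 with antral mural and cumulus markers, and *Angpt2* below 1 with mitotic markers.

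Differences of 2-fold or more between the highest and the lowest set were counted per class, over genes with at least 20 UMIs in it. In endothelial-like cells 2 of 10 members passed, *Apln* and *Angpt2*, against 21.6% of 11842 genes, a share near the background. In granulosa-like cells 7 of 10 passed (background 47.6%), in stroma-like cells 6 of 10 (35.2%), in theca-like cells 10 of 10 (48.9%), and in luteal-like cells 8 of 8 (48.1%). Pericyte-like cells had 3 of 6 (28.5%), smooth muscle-like cells 3 of 5 (30.0%), atretic-like cells 2 of 5 (27.8%) and lymphatic endothelial-like cells 1 of 3 (40.3%). The counts outside endothelium include receptors at very low levels, such as *Flt1* (0.00846, 0.0389 and 0.0157) and *Kdr* (0.0118, 0.0368 and 0.0243) in stroma-like cells. Taking each member in its own leading class, 3 of 10 passed, against 43.6% of 8280 genes taken in the same way, *Angpt1* at 4.05, *Apln* at 3.29 and *Vegfa* at 2.82.

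Of 28 listed symbols of other genes of these pathways, 27 were in the table, and the remaining one, *Figf*, is an older symbol of *Vegfd*, which was. Of the 27 genes, 19 were 2-fold or more higher in their leading class than in the rest in each set, against 30.8% of genes. Endothelial-like cells led by as much for 9 of the 27, against 3.85% of all genes. Among these 9 were *Tie1*, the partner receptor of TEK, at 96.9, 82.8 and 262 times the rest, and *Ptprb*, the phosphatase that dampens TEK, at 166, 157 and 196 times. *Dll4*, a Notch ligand of tip cells, was at 104, 90.2 and 280 times. Lymphatic endothelial-like cells led by as much for 5 of the 27, against 2.13% of all genes. These included *Flt4*, the receptor of VEGF-C, at 4.01, 3.88 and 2.18 UMIs per 10000 against 0.425, 0.379 and 0.441 in endothelial-like cells. *Nrp2* led there too, at 7.80, 10.1 and 2.64. The other lymphangiogenic ligand, *Vegfd*, was a stromal gene at 0.689, 0.633 and 1.65, while *Vegfb* led no class by 2-fold. *Foxo1*, which AKT holds in check downstream of TEK, led in atretic-like cells, at 9.90, 4.12 and 5.58.

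Between sets, 5 of 20 of these genes passed 2-fold in endothelial-like cells (*Pgf*, *Sema3d*, *Shb*, *Dll4* and *Thbs1*), against the same background of 21.6%. In granulosa-like cells it was 17 of 25 (47.6%) in theca-like cells 14 of 20 (48.9%), in stroma-like cells 16 of 25 (35.2%), in pericyte-like cells 7 of 11 (28.5%) and in smooth muscle-like cells 6 of 11 (30.0%). *Dll4* in endothelial-like cells was 0.673, 0.789 and 0.311, lowest in set 3 where *Apln* was highest.

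The genes whose levels followed each member most closely over 27 points (9 classes in 3 sets, sharing libraries and depth) were listed by Pearson's r of log2 levels. Only classes with at least 50 cells in each set were taken. This left out lymphatic endothelial-like cells, which had *Kdr* without *Flt1* and the highest *Angpt2* level. *Flt1* was nearest to *Gimap4* (0.966), *Kdr* to *Zfp366* (0.958) and *Tek* to *Gpr182* (0.968), while *Aplnr* was nearest to *Tek* itself (0.935). *Angpt1* followed *Col6a1* (0.894), *Nrp1* *Cdc42ep2* (0.913), *Vegfc* *St6galnac3* (0.874) and *Apln* *Spns2* (0.880). *Vegfa* followed *Smim3* (0.865). *Angpt2* had the least close neighbour, *Asb4* (0.851). Among members, *Flt1* and *Kdr* had an r of 0.94, as did *Tek* and *Aplnr*, whereas *Vegfa* was negative with *Kdr* (-0.42) and *Flt1* (-0.44).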

How the data were processed

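The authors deposited 1 table of natural log values, each ln(1 + x) with x the UMIs of the gene scaled to 10000 per cell, for cells of 3 libraries of mouse ovary. The labels' processing notes name Cell Ranger, Seurat and mm10 without versions. UMIs were worked back from the values, and 100% of 80167176 values above 0 were whole within 0.01. Barcodes occurring in more than 1 set were few (27, 46 and 39 for the pairs of sets). Sets 1, 2 and 3 totalled 81367055, 72906577 and 85756955 UMIs.

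Markers were scaled to the 95th percentile of the cells with a UMI of the marker, within each barcode set (over all sets for the rarest). The part of this scaling in differences between sets was not tested. A cell took the class with a mean score of at least 0.2 that led the next by 0.05. Granulosa and luteal scores needed no such lead over each other, and the higher one gave the class. A total of 4912 cells were near a threshold. The atretic class then took granulosa-like or unclassed cells with an atretic score of at least 0.3 and above the granulosa score. Their stroma score had to be under 0.1. This separation of granulosa, luteal and atretic classes was set after clusters and their *Angpt2* levels had been seen. Doublets were not called, and an alternative left out the 5% of cells with most UMIs. Ratios have exact conditional binomial intervals and shares Clopper-Pearson intervals at 95%. Only the ratio interval was tried on simulated data. These were drawn as Poisson counts, so the trial does not speak to variation between cells beyond counting error. Thinning left out 3042 cells under 3000 UMIs. No test was possible with 1 library per group. All members are named, as are other pathway genes from a list, and the 3 genes most like each member were found with a pseudocount of 0.01. Members and lists were chosen with earlier results of these data known. Alternatives were cluster classes, a stricter gate, a mean over cells, abundant genes left out, a depth minimum of 1500 UMIs and other UMI minimums. Tools were Python 3.11.15 with numpy 2.4.6, scipy 1.17.1, pandas 2.3.3, scikit-learn 1.9.0, igraph 0.11.9 and matplotlib 3.10.9.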

Additional observations from a re-analysis of the deposited data

Results flagged for a closer look

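Results are given here where a member was clearly higher in one set in 1 class and clearly lower in the same set in another, with both intervals beyond a factor of 1.5. Myeloid-like cells were not searched, so their *Vegfa* difference given above is not listed. None of these differences between classes was tested, since there is 1 library per time point.

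*Angpt2* in set 2 over set 1 was 2.22 in theca-like and 0.50 in stroma-like cells. Granulosa markers in theca-like cells were also highest in set 2, and their part was not tested. In set 3 over set 1 *Angpt2* was 3.05 in endothelial-like cells, 0.535 in stroma-like and 0.139 in luteal-like cells. The part of lymphatic or pericyte RNA in the endothelial-like value was not tested. *Apln* in set 3 over set 1 was 4.03 in granulosa-like cells, from 39 and 11 UMIs, and 3.29 in endothelial-like cells, against 0.160 in luteal-like cells. The granulosa-like *Apln* level was 2.29%, 2.38% and 2.80% of the endothelial-like level in sets 1, 2 and 3, and the part of free RNA in it was not tested. In set 3 over set 2 it was 3.31 in theca-like and 2.26 in endothelial-like cells, against 0.341 in luteal-like cells. The luteal-like class had a different makeup in set 3. In the luteal-like clusters matched by leading genes, *Apln* in set 3 was 0.404 times set 1, and 0.823 times (0.383 to 1.62) set 2, and *Angpt2* in set 3 was 0.0739 times (0.00889 to 0.270) set 1 from 2 and 202 UMIs. *Aplnr* in set 3 was 2.72 times set 1 and 2.55 times set 2 in theca-like cells, and 0.33 and 0.489 times in stroma-like cells.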

How the results depend on the processing

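No paired analysis was possible because each time point has 1 library and no test was run. The number of members 2-fold or more over the rest was 8 to 10 over the alternatives (9 as reported, against 30.8% of genes). Of the members, 3 or 4 differed 2-fold between sets in their leading class (3 as reported, against 43.6% of genes). The number of genes past 2-fold between sets, the background of the counts, depended on the UMI minimum. It was 2553 in endothelial-like, 7233 in granulosa-like, 2431 in pericyte-like, 2763 in smooth muscle-like, 5268 in stroma-like and 6754 in theca-like cells. With no minimum it was 7382, 12323, 7438, 7769, 10321 and 12453, and with a minimum of 50 UMIs it was 1675 in endothelial-like, 1040 in pericyte-like and 1439 in smooth muscle-like cells. The number of genes tested changed too. In endothelial-like cells it was 11842 as reported, 17984 with no minimum and 10224 with 50 UMIs, for shares of 21.6%, 41% and 16.4%. With cluster classes the number past 2-fold was 7714 in smooth muscle-like cells, all genes tested there, because only set 3 had a cluster of that class (272 cells) and the count carries no information. A pair of values turned direction. *Angpt2* in lymphatic endothelial-like cells, set 3 over set 1, became 0.974 as a mean over cells. *Vegfa* in its leading class over the rest, lowest set, became 0.962 with granulosa, luteal and atretic classes joined, an alternative added after seeing the data. The *Apln* lead over the rest, at least 6.22, became 18.9 as a mean over cells. The *Angpt2* lead was 4.76, with atretic-like cells leading, when classes under 50 cells could not lead. The causes of the other changes were not tested. Set 3 had no lymphatic cluster, so cluster classes gave no *Angpt2* value there. The lymphatic endothelial-like class and *Apln*, *Tek* and *Aplnr* outside endothelial-like cells are limited by few UMIs.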

Other observations

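Small classes that are not described above, though they could lead a gene in the counts of leading classes, held some members. The 8 and 19 epithelial-like cells of sets 1 and 2 had *Angpt2* at 3.20 and 2.43 and *Kdr* at 2.53 and 2.10 UMIs per 10000, with endothelial gate markers at a summed level of 0 and 0.381. The 23 erythroid-like cells of set 3 held 17 *Flt1*, 14 *Kdr* and 29 *Nrp1* UMIs, and endothelial gate markers summed to 5.12 UMIs per 10000 in them. The part of endothelial RNA in these values was not tested.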
